A study of Mus musculus with 54 samples.

Results

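Mog, Mrs2, Phyhip and Faim2 are 4 mouse genes that differed by large folds between testes of second-generation (F2) males whose father, and not whose mother, had received the lower dose of a drug mixture and testes of F2 males of other crosses. They were chosen from measured values, namely their folds in F2 testis of father dose 1 against mother dose 1 or against control parents, and they are 4 of the 26264 entries of each count table. The folds that chose them are therefore given as a description, without a test. The genes, their Entrez identifiers and their chromosomes are Mog (17441, chromosome 17, minus strand), Mrs2 (380836, chromosome 13, minus strand), Phyhip (105653, chromosome 14, plus strand) and Faim2 (72393, chromosome 15, minus strand), so no chromosome is shared.

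The study sequenced messenger RNA in 54 libraries of mouse gonads, 27 of testis and 27 of ovary, in 9 groups of 3 libraries that the labels letter A, B and C. First-generation (F1) mice met a mixture of the anti-inflammatory drugs ibuprofen and diclofenac, the ibuprofen metabolite 2-hydroxyibuprofen and the contraceptive estrogen ethinyl-estradiol in drinking water, through the pregnant dam from 8.5 days post-coitum and then directly until sacrifice at 10 weeks in males and 8 weeks in females. Dose 1 held 11.3 ng/L ibuprofen, 90 ng/L 2-hydroxyibuprofen, 22.5 ng/L diclofenac and 2.25 ng/L ethinyl-estradiol, and dose 2 held 113, 225, 112 and 45 ng/L of the same compounds. Control water held 0.001% ethanol. F2 mice carry the treatment label None, and their groups are named for the exposed F1 parent: control parents, mother dose 1 (control male by dose 1 female), father dose 1 (dose 1 male by control female), mother dose 2, father dose 2, and both parents dose 2. The labels give no strain, and nothing says whether the 3 libraries of a group came from separate litters, so a p-value measures only the spread between these libraries.

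Mog encodes myelin oligodendrocyte glycoprotein, a surface protein on the outermost layer of central nervous system myelin and a well known target of autoimmune demyelination. Mrs2 encodes a magnesium channel of the inner mitochondrial membrane, through which magnesium enters the matrix. Phyhip encodes a binding partner of phytanoyl-CoA hydroxylase, the peroxisomal enzyme that starts the breakdown of phytanic acid, and Faim2 encodes a membrane protein that inhibits cell death through the Fas receptor. Mog, Phyhip and Faim2 are best known from brain, whereas Mrs2 is expressed widely.

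Mog is the member that went from the detection limit to clear expression, so the stretch of DNA just before its start site is shown. It is the 250 bases ahead of the RefSeq start, GRCm38.p6 chr17:37023399-37023648, minus strand, with each CG dinucleotide in capitals.
Mog: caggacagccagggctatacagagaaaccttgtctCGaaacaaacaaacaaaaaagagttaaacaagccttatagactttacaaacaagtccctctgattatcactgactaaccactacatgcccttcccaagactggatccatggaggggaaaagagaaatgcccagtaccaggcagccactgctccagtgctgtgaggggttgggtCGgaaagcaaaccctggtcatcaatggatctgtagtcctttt
The stretch holds 2 CG dinucleotides at a GC content of 46.8%, against a median of 6 CG over 32851 RefSeq mouse promoters of the same length, of which 29% hold as few as Mog or fewer. On both strands it holds none of TATAAA (in 12.4% of those promoters), CCAAT (33.8%), GGGCGG (32.7%), TGACG (17.8%) or CACGTG (6.02%). These letters were picked after the sequence had been read, they do not overlap each other, and their absence says only that they are not in this window.

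The depth of a testis library was 31.8 M to 46.4 M counts (M, mega), and that of an ovary library 35.6 M to 102 M. Below, levels are CPM, a gene's counts divided by the depth of its library in M counts, on 1 normalised scale per tissue, and because a count rises with transcript length, levels are compared between samples and not between genes. The tissue labels fitted their markers: the summed spermatid markers were at 14176 to 27671 CPM in testis and 0.413 to 3.93 CPM in ovary, and the summed oocyte markers at 294 to 635 CPM in ovary and 22.1 to 43.8 CPM in testis. In bulk tissue, fewer cells of a type and less RNA per cell cannot be told apart. In F2 testis, father dose 1 had lower summed Leydig cell markers (10 genes, 1070 to 1240 CPM) than control parents (1556 to 1649 CPM) or mother dose 1 (1328 to 1496 CPM). The Leydig sums were as low in father dose 2 (1143 to 1200 CPM), mother dose 2 (909 to 1226 CPM) and both parents dose 2 (988 to 1043 CPM). The 10 summed macrophage markers lay at 85.8 to 90.0 CPM in father dose 1, 115 to 127 CPM in control parents and 107 to 118 CPM in mother dose 1, and at 85.1 to 108 CPM in the 3 dose 2 crosses. The 15 neuron markers summed to 190 to 203 CPM in father dose 1, against 183 to 191 CPM in control parents and 179 to 186 CPM in mother dose 1. The part of these shifts in the members' levels was not tested.

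Mog was read at 180, 260 and 251 counts in libraries A, B and C of father dose 1 testis, which is 4.43, 6.96 and 7.75 CPM (6.38 ± 1.73, SD, n = 3). In the other 24 testis libraries it had 0 to 7 counts and at most 0.200 CPM, with 70 counts in all and 3 libraries at 0. The level of 3 counts, taken as the floor of detection, was 0.0666 to 0.0938 CPM there, and 14 of the 24 libraries stood at or under it. Father dose 1 was thus the only group with more than 7 Mog counts in any library, and its lowest library was 22.1 times above the next highest library, father dose 2 library B.

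Within the remaining groups Mog moved only over a few counts. F1 controls had 5, 4 and 3 counts, F1 dose 1 had 4, 2 and 4, and F1 dose 2 had 0, 1 and 2. F2 testes of control parents had 0, 1 and 3 counts, those of mother dose 1 had 0, 5 and 1, and those of mother dose 2 had 4, 6 and 2. Father dose 2 gave 1, 7 and 3 counts and both parents dose 2 gave 5, 5 and 2. Neighbouring groups in the order of means overlapped. F1 dose 2 had 0 to 2 counts and F1 control 3 to 5 counts, which is at or near the floor, and this difference was not tested.

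Against the 4 Mog counts of control parents, the 691 counts of father dose 1 made a depth-adjusted ratio of 185 (95% interval 72.0 to 682). Against the 6 counts of mother dose 1 the ratio was 112 (51.0 to 305). The other F2 crosses gave ratios of 60.2 (33.4 to 121) for father dose 2, 60.9 (34.6 to 118) for both parents dose 2 and 62.7 (35.6 to 122) for mother dose 2. These exact binomial intervals cover counting error only and not the spread between mice. Mog was chosen on its folds against control parents or mother dose 1, so the intervals are a description and not a test. On the fitted log2 scale, which for a gene near 0 counts depends on the model's prior, the difference was 7.42 ± 0.58 (SE) against control parents and 6.75 ± 0.55 against mother dose 1.

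**Figure D1:**
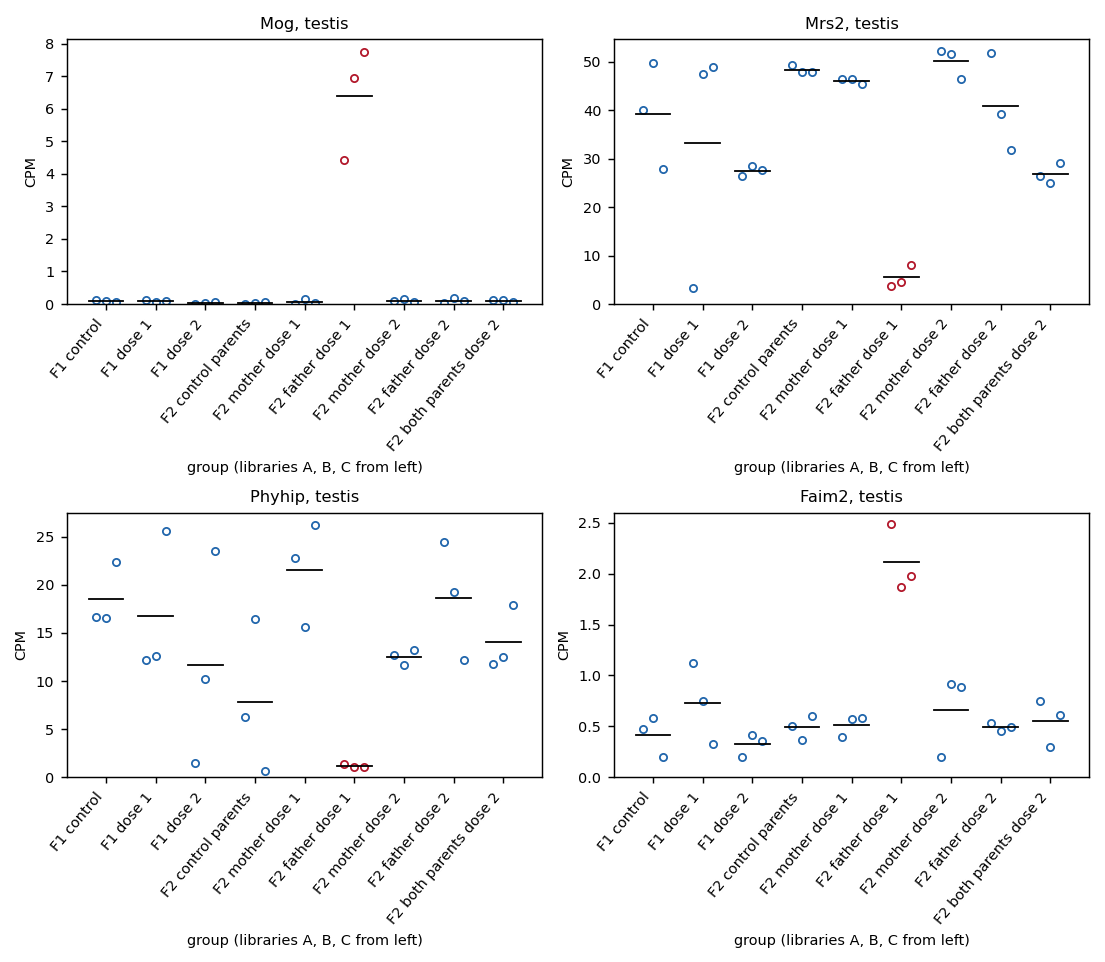
Level in CPM (vertical axes, linear, each starting at 0) of Mog, Mrs2, Phyhip and Faim2 in the 27 testis libraries by group; points are libraries A, B and C from left, lines are group means, and father dose 1 is red. Mog and Faim2 stand above every other library in father dose 1, Mrs2 stands below all but library A of F1 dose 1, and Phyhip is low in all 3 father dose 1 libraries and in scattered libraries elsewhere.

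Mrs2 ran the other way. Its father dose 1 libraries held 153, 173 and 261 counts, or 3.77, 4.63 and 8.05 CPM (5.48 ± 2.27). Control parents gave 49.3, 47.9 and 47.8 CPM (48.3 ± 0.868), and mother dose 1 gave 46.4, 46.4 and 45.3 CPM (46.0 ± 0.602). Father dose 1 lay far under both groups with no overlap, at a mean 8.81-fold lower than control parents (log2 -3.16 ± 0.21) and 8.39-fold lower than mother dose 1 (log2 -3.07 ± 0.21).

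The dose 2 crosses differed in their Mrs2 levels. Mother dose 2 gave 52.1, 51.6 and 46.4 CPM (50.0 ± 3.18), and father dose 2 gave 51.7, 39.2 and 31.7 CPM (40.9 ± 10.1). With both parents at dose 2 the values were 26.5, 25 and 29.0 CPM (26.8 ± 2.00), under every library of the other F2 crosses except those of father dose 1.

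In F1 testis, libraries of the control and dose 1 groups were far apart for Mrs2 and those of dose 2 close together. F1 controls gave 40.1, 49.6 and 27.7 CPM, and F1 dose 2 gave 26.5, 28.4 and 27.7 CPM. F1 dose 1 gave 3.28 CPM in library A (105 counts), against 47.3 and 48.9 CPM in libraries B and C. Library A of F1 dose 1 was the lowest for Mrs2 of all 27 testis libraries, under the 3 of father dose 1, and the next library up was library B of both parents dose 2, 3.11 times above the highest of these 4.

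Ordered by mean, Mrs2 fell from mother dose 2 through control parents, mother dose 1, father dose 2, F1 control, F1 dose 1, F1 dose 2 and both parents dose 2 to father dose 1. Of neighbouring groups in that order, only control parents and mother dose 1, and both parents dose 2 and father dose 1, did not overlap.

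Part of Mrs2 lies over another gene. In the GENCODE M21 annotation of GRCm38, 2466 of its 7621 exon bases are shared with Gpld1 on the opposite strand. The kit was stranded, but no source used here gives the strand setting of the counting. Whether reads there were counted for either gene or for neither is not known. Gpld1, which encodes an enzyme that cuts lipid-anchored proteins, was at 5.91, 6.51 and 4.75 CPM in father dose 1 and at 5.69, 4.31 and 4.88 CPM in control parents (log2 0.20 ± 0.19). It stood at 4.25 CPM in F1 dose 1 library A. The Gpld1 counts therefore showed no low level in the 4 libraries that were low for Mrs2. Mog overlaps only the small RNA gene Gm22388, with 0 shared exon bases, and Phyhip and Faim2 overlap no annotated gene.

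Phyhip was low in all 3 father dose 1 libraries, at 57, 41 and 33 counts, or 1.40, 1.10 and 1.02 CPM (1.17 ± 0.203). Mother dose 1 gave 22.8, 15.6 and 26.2 CPM (21.5 ± 5.44), 18.4-fold higher in the mean with no overlap (log2 -4.18 ± 0.77 for father dose 1). Control parents gave 6.30, 16.5 and 0.679 CPM (7.82 ± 8.00). Control library C was thus lower than any father dose 1 library, and the 2 groups overlapped (log2 -2.74 ± 0.77). Without control library B the difference was -1.54.

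Phyhip varied in other groups too. F1 dose 2 gave 1.47, 10.2 and 23.5 CPM, so library A there stood beside the father dose 1 libraries. F1 controls gave 16.7, 16.5 and 22.4 CPM, and F1 dose 1 gave 12.2, 12.6 and 25.6 CPM. The dose 2 crosses lay between 11.7 and 24.5 CPM, with 12.7, 11.7 and 13.2 CPM for mother dose 2, 11.8, 12.5 and 17.9 CPM for both parents dose 2, and 24.5, 19.3 and 12.2 CPM for father dose 2. In all, 5 testis libraries were under 2 CPM, and they belonged to father dose 1, control parents and F1 dose 2.

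By mean, Phyhip went from mother dose 1 down through father dose 2, F1 control, F1 dose 1, both parents dose 2, mother dose 2, F1 dose 2 and control parents to father dose 1. Every neighbouring pair of groups in that order overlapped.

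Faim2 was low in testis and highest in father dose 1, with 101, 70 and 64 counts, or 2.49, 1.87 and 1.97 CPM (2.11 ± 0.328). Control parents gave 0.50, 0.369 and 0.604 CPM (0.491 ± 0.118) from 15 to 24 counts, and mother dose 1 gave 0.396, 0.569 and 0.578 CPM (0.514 ± 0.102) from 14 to 21 counts. Neither group overlapped father dose 1, whose mean was 4.30-fold that of control parents (log2 2.10 ± 0.40) and 4.11-fold that of mother dose 1 (log2 2.04 ± 0.40).

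The remaining Faim2 values lay in a low band. F1 dose 1 gave 1.13, 0.750 and 0.324 CPM, the first of these being the highest library outside father dose 1. F1 controls gave 0.475, 0.581 and 0.200 CPM, and F1 dose 2 gave 0.202, 0.413 and 0.360 CPM. Among the dose 2 crosses, the values were 0.195, 0.914 and 0.882 CPM for mother dose 2, 0.528, 0.457 and 0.490 CPM for father dose 2, and 0.748, 0.295 and 0.607 CPM for both parents dose 2. Only the step from father dose 1 to the next group, F1 dose 1, was free of overlap.

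Set against all 19241 genes of the F2 testis fit, the folds that chose the members ranked by size at 5 (Mog), 57 (Mrs2), 74 (Phyhip) and 113 (Faim2) for father dose 1 against control parents. Against mother dose 1 they ranked at 8, 59, 27 and 123. The 2 comparisons share the father dose 1 libraries, and nothing further is read from these ranks. Between father dose 1 and control parents, 3 of the 4 members did not overlap, where 23% of all genes did not overlap and edgeR's quasi-likelihood test called 3.97% of genes. All 4 did not overlap between father dose 1 and mother dose 1, where the shares were 25.8% and 1.16%. These called shares rest on single libraries: 764 genes were called in the former comparison, and 224 to 1595 when 1 library was left out, and in the latter 223, 79 to 273, and 707 with only the 6 libraries compared.

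The remaining comparisons with control parents in F2 testis also enter the choice and are described only. Mother dose 1 against control parents gave log2 differences of -0.08 ± 0.18 for Mrs2, 1.44 ± 0.64 for Phyhip and 0.05 ± 0.44 for Faim2, and only Mrs2 did not overlap, by a narrow gap (25.1% of genes did not overlap and 0.816% were called). Both parents dose 2 against control parents gave -0.86 ± 0.19 for Mrs2, again without overlap (20% and 4.59%), 0.82 ± 0.64 for Phyhip and 0.15 ± 0.43 for Faim2. No member was free of overlap in father dose 2 or mother dose 2 against control parents, where 28.7% and 21.8% of genes were free of it, and 5.33% and 1.7% were called. Mrs2 differed there by -0.25 ± 0.18 and 0.05 ± 0.18, Phyhip by 1.24 ± 0.64 and 0.67 ± 0.64, and Faim2 by 0.00 ± 0.44 and 0.43 ± 0.42. The Phyhip values turn on 2 control libraries: without control library B they were 2.62 for mother dose 1, 2.42 for father dose 2, 1.86 for mother dose 2 and 2.01 for both parents dose 2, and without control library C 0.91, 0.70, 0.13 and 0.29.

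In ovary the members did not repeat the testis pattern of father dose 1. Mog had 0 counts in 24 of 27 ovary libraries and in all 3 of father dose 1, and elsewhere 2 counts in F1 control library A, 1 in F1 dose 1 library B and 1 in father dose 2 library C. No ovary library exceeded 3 counts, a floor of 0.0300 to 0.0845 CPM, so Mog was not detectable there at this depth.

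Mrs2 was present in every ovary library, from 12.3 to 45.6 CPM. Father dose 1 gave 24.4, 37.1 and 31.1 CPM (30.9 ± 6.31), and control parents gave 33.2, 40.1 and 39.1 CPM (37.5 ± 3.69). Mother dose 1 gave 36.9, 35.5 and 31.1 CPM. Father dose 1 overlapped both groups, with a log2 difference of -0.27 ± 0.22 from control parents (95% interval -0.75 to 0.20, adjusted p = 0.754, edgeR's quasi-likelihood test with Benjamini-Hochberg adjustment). The lower ovary values of Mrs2 lay in father dose 2 (30.1, 18.4 and 16.7 CPM), both parents dose 2 (21.9, 30.2 and 16.8 CPM) and F1 control (12.3, 25 and 30.0 CPM). Higher values came from mother dose 2 (36.7, 30.0 and 34.2 CPM), F1 dose 1 (28.8, 29.8 and 45.6 CPM) and F1 dose 2 (28.8, 27.3 and 35.7 CPM).

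Phyhip in ovary ranged from 8.79 to 41.3 CPM. Control parents gave 39.3, 30.8 and 32.2 CPM (34.1 ± 4.53) and father dose 1 gave 14.2, 12.0 and 32.5 CPM (19.6 ± 11.3), so library C of father dose 1 lay inside the control range and the other 2 below it. Mother dose 1 gave 22.1, 25.7 and 14.7 CPM, all under the controls, in a comparison where 14% of genes did not overlap (log2 -0.71 ± 0.47, adjusted p = 0.686 by edgeR). The log2 difference of father dose 1 from control parents was -0.79 ± 0.47 (-1.79 to 0.20) with an adjusted p of 0.638 by edgeR. Mother dose 2 gave 8.79, 24.4 and 23.3 CPM, also all under the controls, where 10.4% of genes did not overlap (adjusted p = 0.868 by edgeR). Values were spread widely in father dose 2 (41.3, 25.4 and 22.4 CPM) and both parents dose 2 (23.7, 11.5 and 36.3 CPM). F1 ovaries were between 15.1 and 24.9 CPM in all 9 libraries.

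Faim2 in ovary was uneven between libraries of a group, from 0.275 to 6.68 CPM. Father dose 1 gave 1.02, 3.65 and 0.719 CPM, and control parents gave 0.439, 3.51 and 1.32 CPM. Mother dose 2 held the highest library, with 6.68, 0.763 and 0.456 CPM, whereas father dose 2 was low throughout (0.483, 0.374 and 0.578 CPM). Father dose 1 and control parents differed by 0.04 ± 0.96 on the log2 scale (-2.01 to 2.09, adjusted p = 0.993 by edgeR). The difference between tissues was not tested, because the testis values chose the genes. For Mrs2, Phyhip and Faim2 in ovary, every neighbouring pair of groups in the order of means overlapped.

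**Figure D2:**
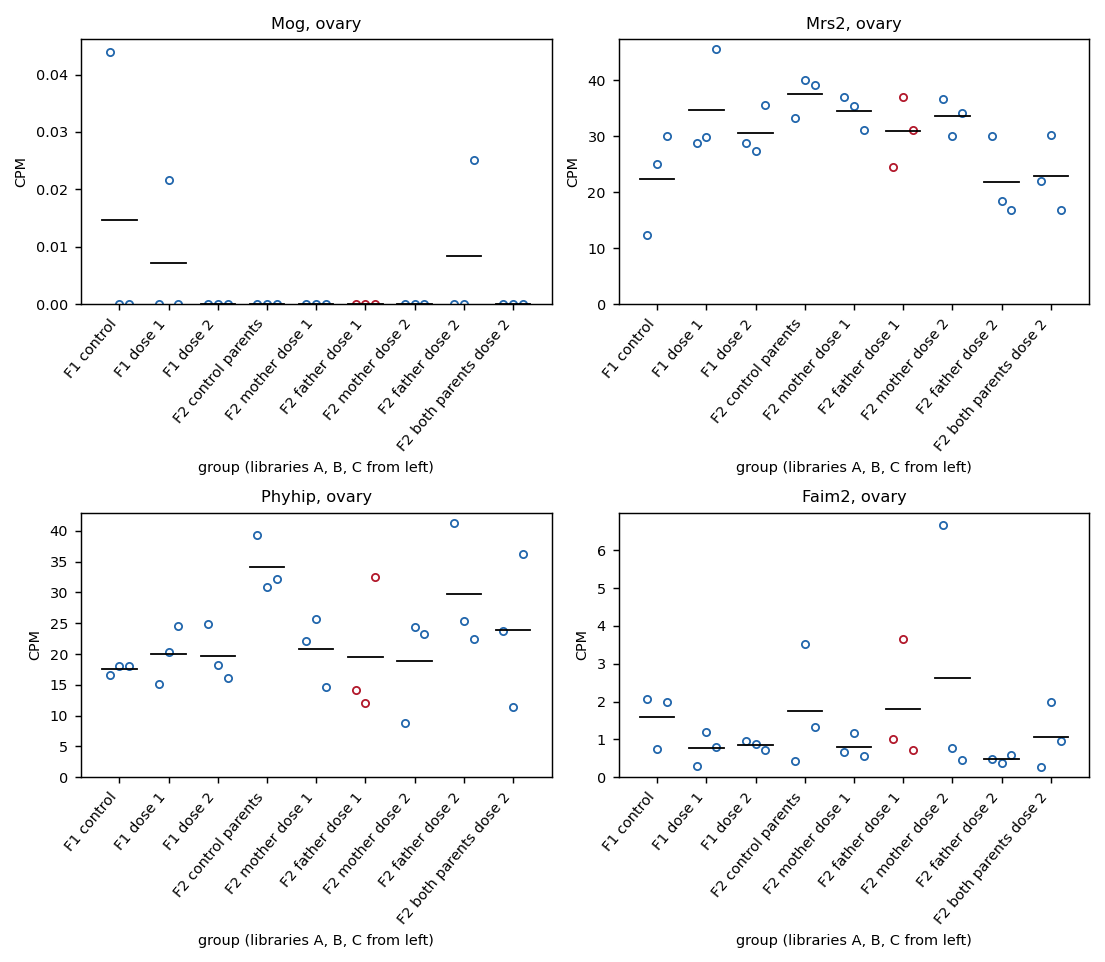
Level in CPM (vertical axes, linear, each starting at 0) of the same genes in the 27 ovary libraries by group, drawn as for testis with father dose 1 in red. Mog stays at 0 to 2 counts, and for Mrs2, Phyhip and Faim2 the father dose 1 points lie among those of other groups.

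In the 13 comparisons that played no part in the choice of the genes and could be tested, none of the 39 values of Mrs2, Phyhip and Faim2 passed an adjusted p of 0.05 by edgeR. Of these 39, 4 had an unadjusted p under 0.05, all for Mrs2, and DESeq2 called 3 of them. Over all genes an unadjusted p under 0.05 was common in those 4 comparisons: 1437 and 2158 of 19241 genes in testis (both parents dose 2 against mother dose 2 and against father dose 2), and 2765 and 4275 of 17454 in ovary (father dose 2 and both parents dose 2 against control parents). Mog is left out because its groups averaged fewer than 10 counts in each.

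The Mrs2 value with the smallest p came from testis with both parents at dose 2. Against mother dose 2, whose libraries it did not overlap, the level was 1.86-fold lower (log2 -0.91 ± 0.19, interval -1.31 to -0.52, adjusted p = 0.0815 by edgeR's quasi-likelihood test). Of all genes, 11.5% did not overlap there and 0.135% were called. The call depended on the method, with an adjusted p of 0.000447 by DESeq2, which called 112 of 18491 genes, 0.0155 by edgeR on only these 6 libraries, and up to 0.750 over all alternatives. Against father dose 2 the log2 difference was -0.62 ± 0.19 (adjusted p = 0.247 by edgeR), again without overlap (14.7% of genes did not overlap and 0.13% were called). Father dose 2 against mother dose 2 gave -0.30 ± 0.18 (adjusted p = 0.785, with 0.109% called).

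In ovary, Mrs2 had its lowest F2 means in the crosses with a dose 2 father, without passing the edgeR threshold and without overlap with control parents. Father dose 2 differed from control parents by -0.79 ± 0.23 (adjusted p = 0.185 by edgeR and 0.0363 by DESeq2), in a comparison where 20.8% of genes did not overlap and edgeR called 0.00573%, while DESeq2 called 370 of 14066 genes. Both parents dose 2 differed by -0.71 ± 0.23 (adjusted p = 0.0864 by edgeR and 0.0264 by DESeq2), where 26.3% did not overlap and edgeR called 0.688%, while DESeq2 called 1859 of 14743 genes. Leaving out father dose 2 library A gave -1.11 with an adjusted p of 0.0411 by edgeR (108 of 17682 genes called), and leaving out both parents dose 2 library B gave -0.97 with 0.0313 (1443 of 17692 genes called). Over all alternatives the adjusted p of Mrs2 ran from 0.0363 to 0.533 for father dose 2 and from 0.0264 to 0.341 for both parents dose 2. Mother dose 2 differed from control parents by -0.15 ± 0.22 (adjusted p = 0.957 by edgeR, with 0% of genes called). The 3 comparisons share the control parents, and whether the crosses differ from each other in ovary was not tested.

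Directly exposed F1 mice gave wide intervals in testis. For dose 1 against control the log2 differences were -0.22 ± 0.77 for Mrs2, -0.13 ± 0.77 for Phyhip and 0.80 ± 0.51 for Faim2, with adjusted p of 0.971, 0.985 and 0.735 by edgeR, and 0.0317% of genes were called. Without library A of dose 1, Mrs2 gave 0.30 in place of -0.22. For dose 2 the differences were -0.51 ± 0.77, -0.66 ± 0.78 and -0.35 ± 0.55, with adjusted p of 0.725, 0.647 and 0.733, and 2.21% of genes were called. In F1 ovary, dose 1 gave 0.63 ± 0.32 for Mrs2, 0.19 ± 0.22 for Phyhip and -1.07 ± 0.54 for Faim2 (adjusted p of 0.726, 0.765 and 0.726 by edgeR). Dose 2 gave 0.45 ± 0.32, 0.17 ± 0.22 and -0.92 ± 0.54 (adjusted p of 0.490, 0.684 and 0.446).

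Phyhip and Faim2 had wide intervals in the F2 tests as well. In testis, Phyhip differed by 0.57 ± 0.63 between father dose 2 and mother dose 2 and Faim2 by -0.43 ± 0.43 (adjusted p of 0.892 and 0.875 by edgeR). With both parents at dose 2, Phyhip differed by 0.15 ± 0.63 from mother dose 2 and -0.42 ± 0.63 from father dose 2, and Faim2 by -0.28 ± 0.42 and 0.15 ± 0.44, with adjusted p from 0.834 to 0.980. In ovary, the differences from control parents ran from -0.85 ± 0.47 (mother dose 2) to -0.21 ± 0.46 (father dose 2) for Phyhip. For Faim2 they ran from -1.87 ± 1.03 (father dose 2) to 0.57 ± 0.96 (mother dose 2). Father dose 1 against mother dose 1 in ovary, the direct comparison of the parent of origin, gave -0.16 ± 0.22 for Mrs2, -0.09 ± 0.47 for Phyhip and 1.16 ± 0.99 for Faim2 (adjusted p of 0.968, 0.989 and 0.953 by edgeR).

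In 6 of the 8 ovary comparisons edgeR called 0% of all genes. There, 1680 genes had an unadjusted p under 0.05 for father dose 1 against control parents and DESeq2 called 83, and for mother dose 1 against control parents these counts were 1606 and 126. For father dose 1 against mother dose 1 they were 861 and 4, for mother dose 2 against control parents 1017 and 14, for F1 dose 1 903 and 78, and for F1 dose 2 2053 and 314. The members' lack of calls in these 6 comparisons stands against a background without edgeR calls, unlike the 2 comparisons of father dose 2 and both parents dose 2 with control parents.

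**Figure D3:**
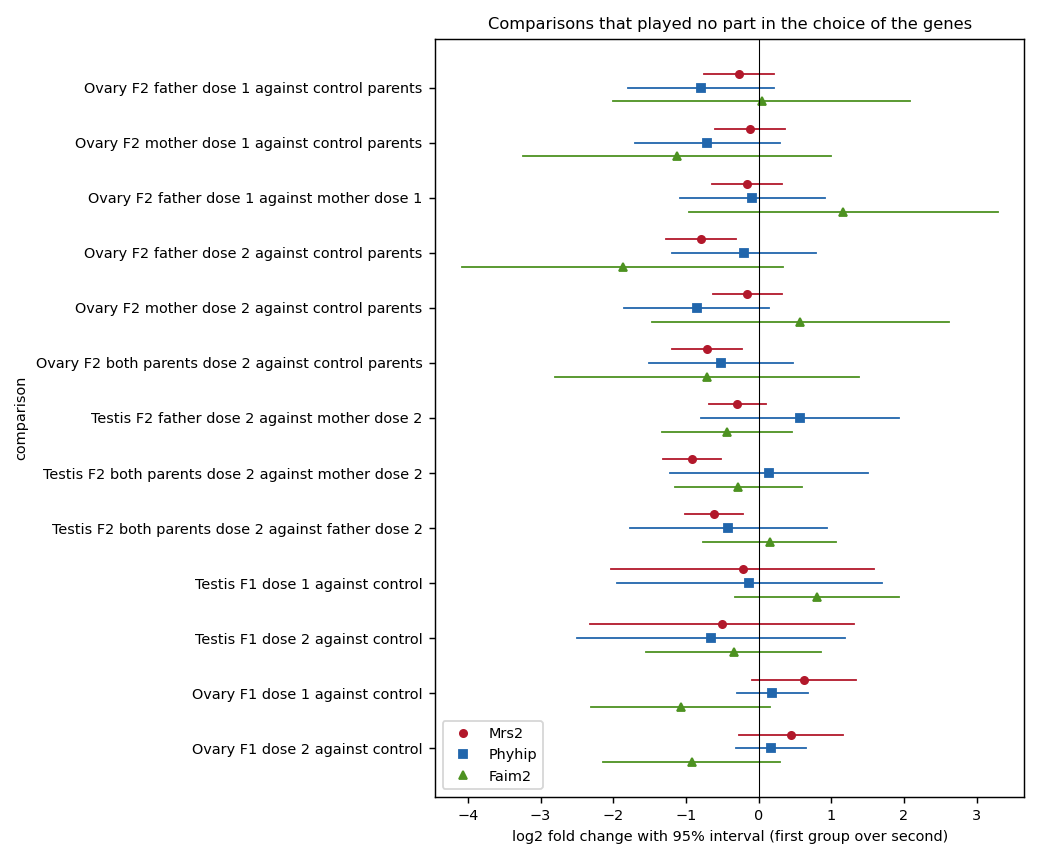
Log2 fold change (horizontal axis) with its 95% interval for Mrs2 (circles), Phyhip (squares) and Faim2 (triangles) in the 13 comparisons (vertical axis) that did not enter the choice of the genes. The Mrs2 interval lies below 0 in 4 comparisons. In testis these are both parents dose 2 against mother dose 2 and against father dose 2. In ovary they are father dose 2 and both parents dose 2 against control parents. For father dose 2 against mother dose 2 in testis the Mrs2 interval crosses 0 (-0.69 to 0.09). The intervals of Phyhip and Faim2 all cross 0.

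Other genes of each member's process were described from lists. Of 20 genes of myelin and myelinating glia, 16 passed the expression filter in F2 testis, and 0 were called by edgeR for father dose 1 against control parents (median log2 -0.05, against -0.01 over all genes). Of the listed genes, Opalin and Omg had 0 counts in all 3 libraries where Mog was high, and Olig2 and Ermn had at most 1 count. These genes were named after their values were seen, and their levels in the other libraries are not given here. Mbp, the myelin basic protein gene, was at 1.36 to 1.80 CPM in father dose 1 and 1.03 to 3.27 CPM in the other testis libraries. Summed over the list, father dose 1 lay at 271 to 280 CPM and the other testis groups at 226 to 275 CPM. Cldn11 of this list is also a listed Sertoli cell marker, so the sum is not specific to myelinating cells. The source of the Mog reads was not tested.

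For Mrs2, 21 of 22 genes of magnesium and mitochondrial cation transport were measured in F2 testis. In father dose 1 against control parents, where 3.97% of all genes were called, 1 of the 21 was lower, Magt1, which encodes a magnesium transporter of the cell membrane and endoplasmic reticulum (log2 -0.97 ± 0.19), and the list's median was -0.11. Magt1 was also lower against the same control parents in mother dose 1 (-0.95), father dose 2 (-0.83) and both parents dose 2 (-0.98), crosses in which Mrs2 was not at the father dose 1 level. For Phyhip, 0 of 15 measured genes of phytanic acid breakdown were called (median 0.01). For Faim2, 1 of 16 genes of the Fas pathway was higher, Bid, which links death receptors to mitochondria (0.57 ± 0.15), with a list median of -0.08. Counts of 0 or 1 in lists of this size are near the share over all genes. Against mother dose 1, 0 genes of the 4 lists were called, with list medians from -0.09 to 0.04 and a median of 0.01 over all genes. In both parents dose 2 against control parents, 4.59% of all genes were called. The called genes of phytanic acid breakdown there were Phyh (-0.43), Acox3 (-0.29) and Amacr (-0.58), all lower. No gene of these lists was called by edgeR in the 13 tested comparisons, where only 0% to 2.21% of all genes were called.

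Cell type markers were also lower in the father dose 1 libraries, and in other crosses. For father dose 1 against control parents, with 3.97% of all genes called, 5 of 10 Leydig cell markers were lower, among them Star (-0.70 ± 0.11), which carries cholesterol into mitochondria, and Hsd17b3 (-0.89), which makes testosterone. Of the macrophage markers 4 of 10 were lower, with Lyz2 at -1.12 and Cx3cr1 at -1.15. Of 10 spermatocyte markers 2 were higher and 1 was lower, the luteal list shared 3 of its 4 called genes with the Leydig list, and 10 further marker lists held 0 called genes. Against mother dose 1, Star (-0.62) and Lyz2 (-0.94) were lower, with 1.16% of all genes called. Against the same control parents, 4 Leydig and 2 macrophage markers were lower in father dose 2 (5.33% of all genes called). The counts were 4 and 3 in mother dose 2 (1.7%), and 6 and 4 in both parents dose 2 (4.59%). In mother dose 1 (0.816%) the Leydig marker Nr5a1 (-0.52) and the macrophage marker Cx3cr1 (-1.02) were lower. Mog and Faim2 stayed low in all these crosses. The part of these markers in the members' differences was not tested.

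Genes next to the members were read to see how far along the chromosome a difference ran. Father dose 1 and control parents in F2 testis chose the members, so calls between them are a description and not an independent test. Among the 20 nearest tested genes of Mog, 10 on each side, father dose 1 against control parents gave a median log2 of 0.05. Both direct neighbours differed in opposite directions. Zfp57, a zinc finger gene that maintains genomic imprints, was at 27.8, 18.2 and 18.7 CPM in father dose 1 against 38.5, 36.9 and 39.6 CPM in control parents (-0.83 ± 0.13). Gabbr1, a GABA-B receptor subunit, was at 21.7, 28.0 and 26.1 CPM against 20.6, 20.8 and 18.4 CPM (0.34 ± 0.09). The highest of the 20 was the epididymal gene Crisp1 at 3.87 ± 3.24, named after its value was seen, and the Mog value was 7.42.

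Around Mrs2, 2 neighbours were higher and 3 lower of 20, against 1 higher and 1 lower each around Mog and Faim2 and 1 higher around Phyhip, with 3.97% of all genes called. Acot13, a thioesterase of fatty acid metabolism, was at 1.33, 1.47 and 1.42 CPM in father dose 1 and at 3.82, 3.30 and 3.20 CPM in control parents (-1.29 ± 0.18). It also stood at 1.71, 1.97 and 1.91 CPM in both parents dose 2 and at 2.28 CPM in F1 dose 1 library A. The predicted gene 9330162012Rik was at 0.837, 0.750 and 0.555 CPM against 2.45, 1.60 and 1.79 CPM (-1.43 ± 0.26) and at 0.719 CPM in F1 dose 1 library A, where libraries B and C had 1.74 and 1.87 CPM. Gmnn, an inhibitor of DNA replication licensing, was higher (0.38 ± 0.09). The 3 father dose 1 libraries thus lay under control parents for Acot13 and 9330162012Rik, by smaller folds than for Mrs2. Library A of F1 dose 1 is of another generation than these control parents, and its Acot13 level is not set against F1 controls here.

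Around Faim2, Nckap5l was higher in father dose 1, like Faim2, at 13.4, 14.9 and 13.6 CPM against 10.4, 8.67 and 10.9 CPM in control parents (0.48 ± 0.13). The direct neighbour Aqp2, a water channel gene, was at 4.63, 3.53 and 4.81 CPM in father dose 1 against 14.4, 8.72 and 14.1 CPM in control parents (-1.53 ± 0.19), opposite in direction to Faim2. Aqp2 was also lower than in control parents in father dose 2 (-1.22), mother dose 2 (-1.12) and both parents dose 2 (-1.05). Around Phyhip, 1 of 20 differed, Dmtn, an actin-bundling gene, at 3.94, 3.53 and 3.21 CPM against 2.16, 2.09 and 1.91 CPM (0.79 ± 0.15). No neighbour of any member was called by edgeR in the 13 tested comparisons, where only 0% to 2.21% of all genes were called.

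**Figure D4:**
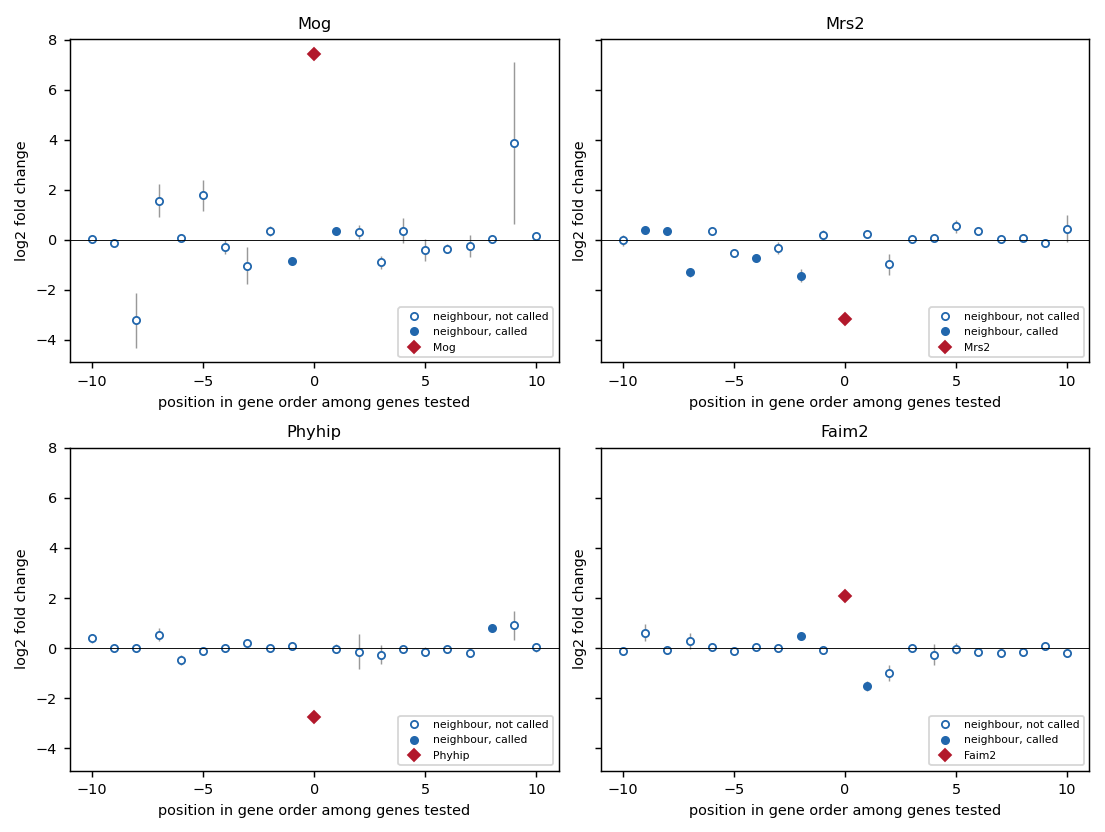
Log2 fold change of father dose 1 against control parents in F2 testis (vertical axes) for the 10 genes on each side of each member, by position in gene order (horizontal axes); bars are standard errors, filled circles have an adjusted p under 0.05, and the diamond is the member itself. Each member stands beyond its neighbours, and called neighbours lower by more than 1 log2 unit lie near Mrs2 and Faim2. These libraries chose the members, so the filled circles are a description only.

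Across the 27 testis libraries, the genes whose log2 CPM ran most like a member's were named by Pearson's r, as a description of libraries that share a tissue and a scale. They include the father dose 1 libraries that chose the members, so likeness between members is in part fixed by the choice. Mog was most like Faim2 (r = 0.76), followed by Entpd3 (0.75), which encodes an ectonucleotidase, Sh2b2 (0.75), Npr2 (0.74) and Frmd4a (0.74). Entpd3 was at 1.21 to 1.85 CPM in father dose 1 and 0.0784 to 0.531 CPM elsewhere. Most opposed to Mog were Gm8801 (-0.81), which is also on chromosome 17, 1300017J02Rik (-0.80) and 4933427E13Rik (-0.79).

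Mrs2 was most like the predicted gene Gm11346 (0.88), then Glb1 (0.82), the lysosomal beta-galactosidase, Gm30254 (0.82), Cd247 (0.82), a T cell receptor signalling chain, and its own neighbour 9330162012Rik (0.82). Most opposed were Olfr139 (-0.82), Ripor2 (-0.82) and Entpd3 (-0.76). Gm11346 and Ripor2 are on chromosome 13, as Mrs2 is. Gm11346 was low throughout testis, at 0 to 0.0246 CPM in father dose 1 and 0 to 0.555 CPM elsewhere. Library A of F1 dose 1 took part in this likeness: Glb1 was at 8.56 CPM there and 8.46 to 8.95 CPM in father dose 1, Gm30254 at 2 counts, Gm11346 at 0, and Cd247 at 0.906 CPM against 2.73 to 3.67 CPM. Ripor2 was at 15.5 CPM there and 11.6 to 13.9 CPM in father dose 1. The same library did not share the other members' father dose 1 levels, with Mog at 0.125 CPM, Phyhip at 12.2 CPM and Faim2 at 1.13 CPM. In ovary the r with Mrs2 was 0.02 for Gm11346, -0.51 for Glb1, -0.18 for Cd247 and 0.58 for 9330162012Rik.

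**Figure D5:**
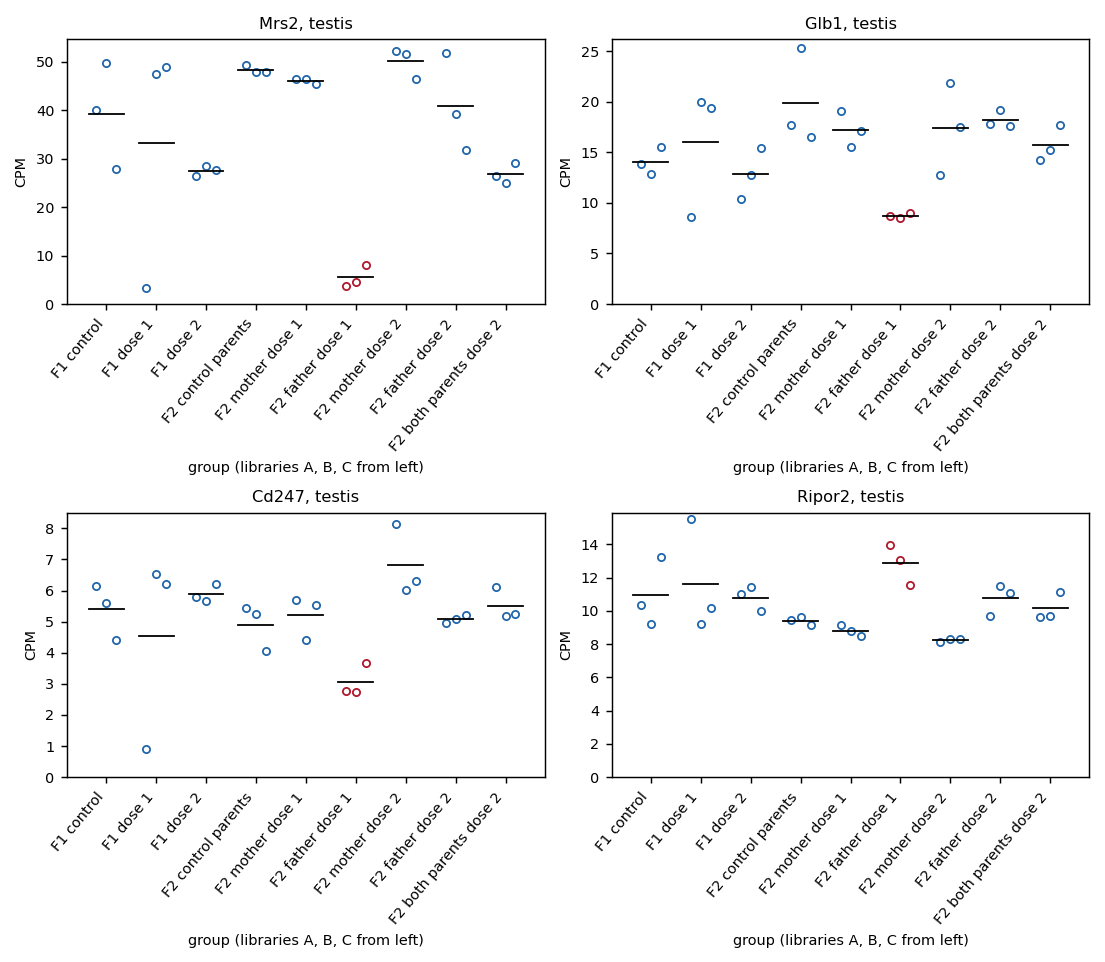
Level in CPM (vertical axes, linear, from 0) of Mrs2, Glb1, Cd247 and Ripor2 in the 27 testis libraries by group; points are libraries A, B and C from left, lines are group means, and father dose 1 is red. Library A of F1 dose 1 lies with father dose 1 for Mrs2 (3.28 CPM) and Glb1 (8.56 CPM), and beyond it for Cd247 (0.906 CPM) and Ripor2 (15.5 CPM).

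Phyhip was most like the sperm surface genes Adam24 (0.83) and Adam20 (0.79), with 1700010J16Rik (0.80), Olfr112 (0.79) and Gm36161 (0.78), and among those most opposed to it were Nfkbia (-0.80) and Tubb5 (-0.79). Faim2 was most like Mog (0.76), then Frmd4a (0.66), Sgo1 (0.65), Gpc3 (0.65) and Fhl2 (0.64), and most opposed to Dnah8 (-0.74), a sperm tail dynein, Kat2b (-0.73) and Ms4a6b (-0.72). Dnah8 was at 524 to 627 CPM in father dose 1 and at 1010 to 5779 CPM in the other testis libraries. Genes with Gm, Rik, Olfr or Adam names are uncertain, since near-identical copies or antisense reads could share their counts.

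Among the members in testis, Pearson's r was 0.76 for Mog and Faim2, -0.74 for Mog and Mrs2, -0.61 for Mog and Phyhip, -0.66 for Mrs2 and Faim2, 0.53 for Mrs2 and Phyhip, and -0.50 for Phyhip and Faim2. The rank correlations were smaller in size (0.47, -0.32, -0.31, -0.22, 0.34 and -0.45). The father dose 1 libraries that chose the members are among these testis libraries, so both measures are in part fixed by the choice. In ovary, where Mog was not detectable, Pearson's r was -0.02 for Mrs2 and Phyhip, 0.21 for Mrs2 and Faim2, and -0.44 for Phyhip and Faim2.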

How the data were processed

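Messenger RNA of testis and ovary was sequenced in 54 libraries from a stranded kit, per the labels' protocols. The values deposited by the authors are raw counts of 26264 entries per tissue. Per the submitters' processing notes, TopHat2 2.1.1 and Bowtie2 2.4.5, with build mm39, featureCounts 2.0.3 and DESeq2 1.32.0 were among the tools. The counting annotation is not given in the sources used here. Of the entries, 133 have no gene ID (0.319 to 0.377% of testis counts, 0.0591 to 0.0861% of ovary counts) and stayed in the totals.

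Here, edgeR 4.0.16 (R 4.3.3, limma 3.58.1) fitted F1 (9 libraries) and F2 (18 libraries) separately per tissue, with TMM factors, its expression filter (minimum count 10), the robust quasi-likelihood test and Benjamini-Hochberg adjustment over all genes. A gene was called at an adjusted p under 0.05. CPM used TMM factors over 27 libraries, and log2 CPM for likeness added a prior count of 2. The scripts were tested on simulated data. The 4 genes, lists and tests were chosen with earlier results of these data known. Named genes were the members, up to 4 called genes of each list or neighbourhood by smallest p, and the 5 most like and 3 most opposed genes; Gpld1, Crisp1 and uncalled list genes were named after their values were seen. Some genes under this rule are not reported here. Gene order came from a GRCm38.p6 table (26083 of 26131 IDs matched). It is another build than that of the counts, and so is the GENCODE M21 annotation, which gave strands, overlaps and exon bases. The promoter sequence, also of GRCm38.p6, was at hand for 1 of the 4 members. No replicates agreed within sampling noise (lowest chi-square per gene 3.24).

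Alternatives were DESeq2 1.42.0, its size factors in edgeR, no filter, a replicate block, only the 6 libraries compared, all 27 libraries, each library left out, and a prior count of 0.5. No log2 fold was given for Mog where both groups averaged under 10 counts, a rule set after its counts were seen.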

Additional observations from a re-analysis of the deposited data

How the results depend on the processing

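Over 12 alternatives each, 444 of the 468 values of the 39 tested results kept their direction and their side of the threshold, and 237 of the 240 values of the 20 described results moved by less than 1 SD between replicates. Of the described ones, Faim2 in testis changed sign near 0 when single libraries were left out, from -0.14 to 0.47 (both parents dose 2), -0.11 to 0.23 (mother dose 1) and -0.17 to 0.17 (father dose 2), each against control parents. Mrs2 passed the threshold by DESeq2 in ovary with both parents at dose 2 (-0.72, adjusted p = 0.0264) or the father at dose 2 (-0.79, 0.0363), and in testis for both parents against mother dose 2 (-0.91 by DESeq2, and -0.91 on only the 6 libraries). With a replicate block, Faim2 in ovary of father dose 1 against control parents gave -0.026 in place of 0.04. Libraries of the same letter correlated over 0.1 for all 3 letters only in F1 ovary dose 1 against control (0.176, 0.194 and 0.336). Ovary of mother dose 1 against control parents came close (0.182, 0.255 and 0.0927). These weak correlations do not show whether libraries were paired, and the block changed no call of a member.

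Leaving out single libraries moved Faim2 in ovary from -1.49 to 0.28 (both parents dose 2), from -1.0 to 1.03 (father dose 1) and from -1.50 to 1.57 (mother dose 2), each against control parents. In testis with both parents at dose 2, Faim2 ran from -0.14 to 0.47 against father dose 2 and from -0.71 to 0.040 against mother dose 2. Mrs2 ran from -0.61 to 0.30 (testis, F1 dose 1), -0.97 to -0.54 (ovary, both parents dose 2), -1.11 to -0.62 (ovary, father dose 2) and -0.092 to -0.055 (testis, mother dose 1 against control parents). Phyhip ran from -0.034 to 0.30 (ovary, F1 dose 2), -0.67 to 0.17 (ovary, father against mother dose 1), -0.58 to 0.046 (testis, F1 dose 1) and -0.051 to 0.27 (testis, both parents against mother dose 2). Mog ran from 6.91 to 8.63 against control parents and from 6.20 to 8.53 against mother dose 1. The cause of these moves was not tested.

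Counts of called genes moved as well. In F2 testis against control parents, leaving out 1 library gave 224 to 1595 in place of 764 (father dose 1), 27 to 785 in place of 157 (mother dose 1), 75 to 3122 in place of 1026 (father dose 2), 40 to 1800 in place of 327 (mother dose 2) and 116 to 2416 in place of 883 (both parents dose 2). DESeq2 called 1282, 650, 1879, 956 and 1567 there. For both parents dose 2 in ovary the count was 120, with 0 to 1443 by leaving out 1 library and 0 with only the 6 libraries, and for F1 dose 2 in testis it was 419, with 6 to 223 and 2132.

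With a prior count of 0.5, 3 of the 5 genes most like Mog stayed among its 5 highest, and all 5 did for the other members. The few counts of Mog outside father dose 1 and of Faim2 in testis limit their values.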
